A study of Mus musculus with 12 samples.

Results

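Genes that encode the heavy and light chains of antibodies were described in RNA-seq of periocular skin. They were taken as every row of the count table named as an immunoglobulin variable gene (Ighv, Igkv or Iglv) or as a heavy, kappa or lambda constant gene. The table held 21247 genes. Of these, 45 matched, and the 44 with at least 3 counts summed over 8 libraries were kept. These were 8 constant genes (Ighm, Ighd, Ighg1, Ighg2b, Igha, Igkc, Iglc1 and Iglc2) and 36 variable genes (7 heavy, 28 kappa and 1 lambda). Igkv15-103 matched but had 0 counts in every library. RefSeq holds 361 mouse genes with such names, of which the table lists 12.5%. Ighe, Ighg2a, Ighg2c, Ighg3 and Iglc3 have no value here, so IgE, IgG2a, IgG2c and IgG3 were not analysed.

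The libraries fell into 2 groups of 4. Mice labelled ft/ft carry a spontaneous loss-of-function point mutation of filaggrin (Flg), which builds the cornified layer of the epidermis, freed of the matted (ma) mutation that once accompanied it. Mice labelled ft/ftMyD88-/- carry that same ft/ft mutation and in addition lack MyD88, the adaptor through which most toll-like receptors and the IL-1 receptor family signal. The paper describes the MyD88 knockout as global. Both groups were BALB/c, 6 weeks of age and housed in a common specific pathogen-free facility, and no treatment is named. The study gives the mice as age- and sex-matched females. The 4 WT libraries were not used here, and both groups compared carry the ft/ft mutation.

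Libraries held 15802957 to 29255129 counts, and 0 counts of a gene allowed up to 0.102 to 0.183 CPM, a limit of 3 counts that covers counting error only. CPM are counts scaled to a common library size with edgeR's TMM factors. Keratinocyte genes (Krt5, Krt14, Krt1 and Krt10) summed to at least 16700 CPM in every library. The targeted gene, Myd88, stood at 30.7 ± 4.74 CPM (SD, n = 4) in libraries labelled ft/ft and at 41.2 ± 7.29 CPM in those labelled ft/ftMyD88-/-. It was called higher there (log2 fold change 0.42, edgeR adjusted p = 0.0484). For the protein, the paper reports immunofluorescence mainly in epidermal cells of ft/ft mice and not in ft/ftMyD88-/- mice. Which exons the allele lacks is not given in the sources used here, so a count over the gene does not check the labels. Xist, the female-specific RNA of the inactive X chromosome, had 1 count in all of ft/ft and 49.4 ± 13.3 CPM in ft/ftMyD88-/-, and Y-linked Ddx3y was at 65.0 and 0.147 CPM, so the libraries labelled ft/ft go against the stated sex. Sex and genotype therefore cannot be told apart in any comparison below, and the group names stand for the libraries labelled so. The study describes as many mice in each group as there are libraries, but the labels tie no library to an animal, and p-values measure the spread between these samples. In bulk tissue, more cells that make antibody and more antibody RNA per cell cannot be told apart either.

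An antibody has 2 identical heavy and 2 identical light chains. Each chain joins a variable region, which binds antigen and is assembled in each B cell from 1 of many germline V genes, to a constant region, which sets the isotype. Naive B cells make IgM and IgD from Ighm and Ighd, and class switching replaces these with IgG, IgE or IgA. Plasma cells, the end stage of the lineage, carry very large amounts of immunoglobulin mRNA. IgA plasma cells are best known from mucosae and exocrine glands, where the joining chain (Jchain) links IgA into dimers that the receptor Pigr carries across epithelium. The lacrimal gland and conjunctiva next to periocular skin are tissues of that kind.

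The IgA constant gene Igha and the light chain constant genes Igkc and Iglc1 rose in ft/ftMyD88-/- skin, Ighd fell, and Ighm, Ighg1 and Ighg2b were not called. Summed over the 44 genes the level was 25.0, 28.8, 37.8 and 27.3 CPM in ft/ft replicates 1 to 4 and 170.0, 70.7, 42.9 and 88.4 CPM in ft/ftMyD88-/-. The lowest ft/ftMyD88-/- library, replicate 3, lay close to the highest ft/ft library, also numbered 3. Igkv4-72, with 5 counts in all, fell short of the 10 counts needed for a test. Of 43 genes tested, 10 were called higher and 1 lower at an adjusted p under 0.05 (edgeR's quasi-likelihood test, with p-values adjusted by Benjamini-Hochberg over 20454 genes). Over all genes tested 10.9% were called higher and 12.3% lower. The 10 were Igha, Igkc, Iglc1, Iglv1, Ighv2-9, Igkv10-96, Igkv4-55, Igkv4-61, Igkv5-43 and Igkv8-30, and the 1 was Ighd. The count over the members, and the median and overlap that follow, are descriptions only. Most members passed the count filter through ft/ftMyD88-/-. In ft/ft 15 of them had no count and only 10 reached 10 counts there alone, against 41 in ft/ftMyD88-/-. Values over all genes are printed for scale and not as a test. The median log2 fold change was 3.90 (2.13 with genes at 0 in ft/ft held at their bound), against 0.01 over all genes tested. Groups did not overlap for 13 members that were higher and 1 that was lower, against 12.5% and 14.2% of all genes.

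**Figure D1:**
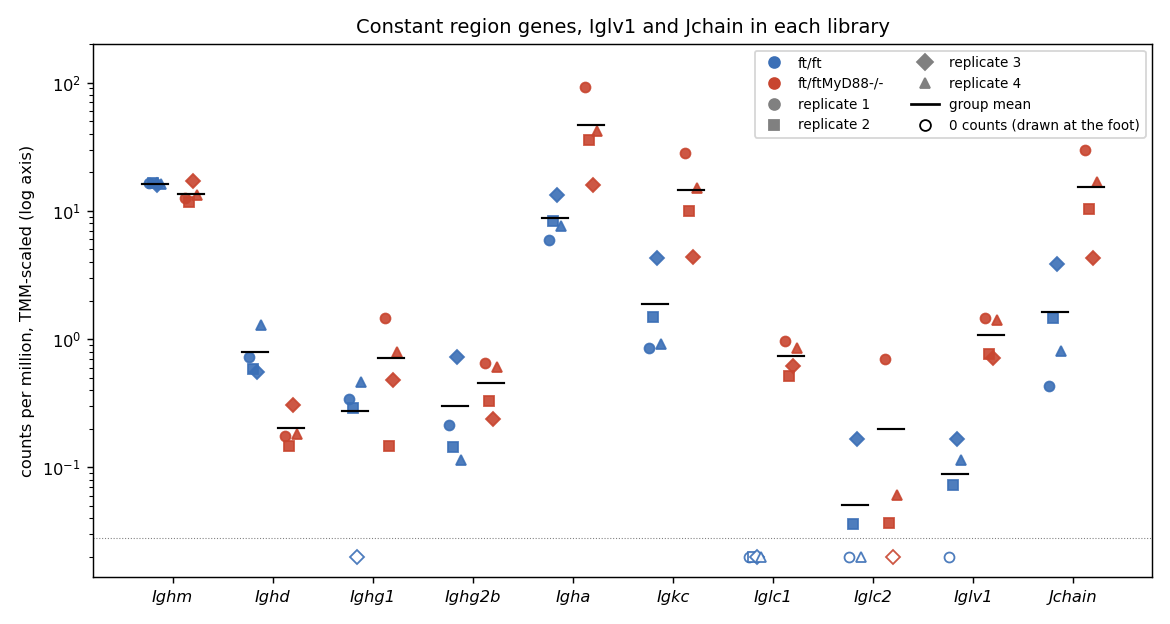
Level of each constant gene, of Iglv1 and of Jchain in the 8 libraries, in TMM-scaled CPM on a log axis, with 1 marker per library, a bar for the group mean, and open markers at the foot for 0 counts. Igha, Igkc and Jchain spread widely within ft/ftMyD88-/-, where replicate 1 is the highest and replicate 3 the lowest, whereas Ighm sits near 16.3 CPM in every ft/ft library.

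Igha (chromosome 12, 113256204 to 113260236, GRCm38.p6), the constant gene of IgA, gained the most CPM among the constant genes, although Igkc and Iglc1 rose more by fold. The ft/ft replicates 1 to 4 gave 138, 231, 240 and 200 counts, and the ft/ftMyD88-/- replicates 2101, 970, 467 and 686. Every ft/ftMyD88-/- library was above every ft/ft library, although replicate 1 held 49.7% of the counts of its group. The means were 8.84 ± 3.20 CPM and 46.4 ± 32.4 CPM (SD, n = 4), a log2 fold change of 2.40 (SE 0.582, edgeR adjusted p = 0.029). The exact permutation test gave p = 0.0286, the smallest that 4 against 4 libraries allow (two-sided). The call rested on few libraries: without ft/ft replicate 1, 2 or 4, or ft/ftMyD88-/- replicate 4, the edgeR adjusted p rose to 0.0748, 0.0732, 0.0832 and 0.0625.

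Igkc (chromosome 6, 70726435 to 70726754), the single kappa constant gene and the source of most mouse light chains, followed the same pattern. Counts of 20, 41, 77 and 24 were found in ft/ft, and of 647, 272, 129 and 246 in ft/ftMyD88-/-, again without overlap. The means were 1.89 ± 1.63 CPM and 14.4 ± 10.2 CPM (SD, n = 4), with a log2 fold change of 2.98 (SE 0.783, edgeR adjusted p = 0.0373). In CPM, ft/ft replicate 3 (4.30) and ft/ftMyD88-/- replicate 3 (4.39) were almost level. The edgeR adjusted p was 0.0884, 0.0925 and 0.0983 without ft/ft replicates 1, 2 and 4, and 0.0600, 0.0574 and 0.0793 without ft/ftMyD88-/- replicates 1, 2 and 4.

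Of the 3 lambda light chain genes, Iglc1 and Iglv1 rose evenly, with 32.4% and 33.7% of the group's counts in the highest ft/ftMyD88-/- library, and Iglc2 was not called. Iglc1 (chromosome 16, 19061752 to 19062071), a lambda constant gene, had 0 counts in all ft/ft libraries and 22, 14, 18 and 14 counts in ft/ftMyD88-/-. Against the limit that 0 counts allow per library it was at least 5.66-fold higher (edgeR adjusted p = 5.12e-04). Iglv1 (chromosome 16, 19085017 to 19085460), a variable gene that joins to Iglc1, rose from 0, 2, 3 and 3 counts (ft/ft) to 33, 21, 21 and 23 (ft/ftMyD88-/-). Its means were 0.0888 ± 0.0707 CPM and 1.08 ± 0.394 CPM (SD, n = 4), a log2 fold change of 3.57 (SE 0.541, edgeR adjusted p = 8.81e-04). Both genes stayed within a narrow count range over the 4 ft/ftMyD88-/- libraries, in which Igkc ran from 129 to 647. Iglc2, the constant gene of a rarer lambda chain, had 16 of its 18 ft/ftMyD88-/- counts in replicate 1 (log2 fold change 2.04, SE 1.37, edgeR adjusted p = 0.314).

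Ighm (chromosome 12, 113418826 to 113422730), the IgM constant gene, held nearly 1 level in ft/ft. Its counts of 387, 453, 283 and 426 in ft/ft came to 16.3 ± 0.355 CPM and those of 286, 318, 500 and 218 in ft/ftMyD88-/- to 13.6 ± 2.35 CPM (SD, n = 4). The groups overlapped because of ft/ftMyD88-/- replicate 3, at 17.0 CPM, and Ighm was not called (log2 fold change -0.26, SE 0.124, edgeR adjusted p = 0.155). Without that library it was called lower, with a log2 fold change of -0.37 (edgeR adjusted p = 0.0285).

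Ighd (chromosome 12, 113407535 to 113416324), which is transcribed together with Ighm and marks mature naive B cells, was the 1 member called lower. The ft/ft libraries held 17, 16, 10 and 34 counts of it, the ft/ftMyD88-/- libraries 4, 4, 9 and 3. No library of one group reached the other in CPM, with means of 0.793 ± 0.349 and 0.203 ± 0.0706 CPM (SD, n = 4). The log2 fold change was -1.93 (SE 0.418, edgeR adjusted p = 0.00636), and in the other fits the edgeR, voom or DESeq2 adjusted p did not exceed 0.0249.

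The IgG genes with a value here, Ighg1 and Ighg2b, were low in both groups. Ighg1, the constant gene of a subclass linked to type 2 help, gave 8, 8, 0 and 12 counts against 33, 4, 14 and 13 in ft/ftMyD88-/- (log2 fold change 1.26, SE 0.716, edgeR adjusted p = 0.23). Ighg2b, another subclass, gave 5, 4, 13 and 3 against 15, 9, 7 and 10 counts (log2 fold change 0.67, SE 0.587, edgeR adjusted p = 0.446). Neither gene was called, and their standard errors leave room for several-fold differences.

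Over the 5 heavy constant genes with a value here, the isotype makeup of the counts differed between the groups. Igha made up 24.9%, 32.4%, 44.0% and 29.6% of heavy constant counts in ft/ft replicates 1 to 4, and 86.1%, 74.3%, 46.8% and 73.8% in ft/ftMyD88-/-. Ighm made up 51.8% to 69.7% and 11.7% to 50.2%. The Igha share was higher in each ft/ftMyD88-/- library, but the exact (Clopper-Pearson) 95% intervals of the replicates numbered 3 overlapped, at 39.7% to 48.2% in ft/ft and 43.7% to 50.0% in ft/ftMyD88-/-. Ighd made up 1.83% to 5.04% in ft/ft and 0.164% to 0.903% in ft/ftMyD88-/-. Ighg1 and Ighg2b each stayed at or under 2.38% in every library. Per kilobase of exon, so that the genes can be set against each other, Igha gave 3.31 and Ighm 8.64 CPM per kb in ft/ft, and 17.4 and 7.23 CPM per kb in ft/ftMyD88-/-.

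**Figure D2:**
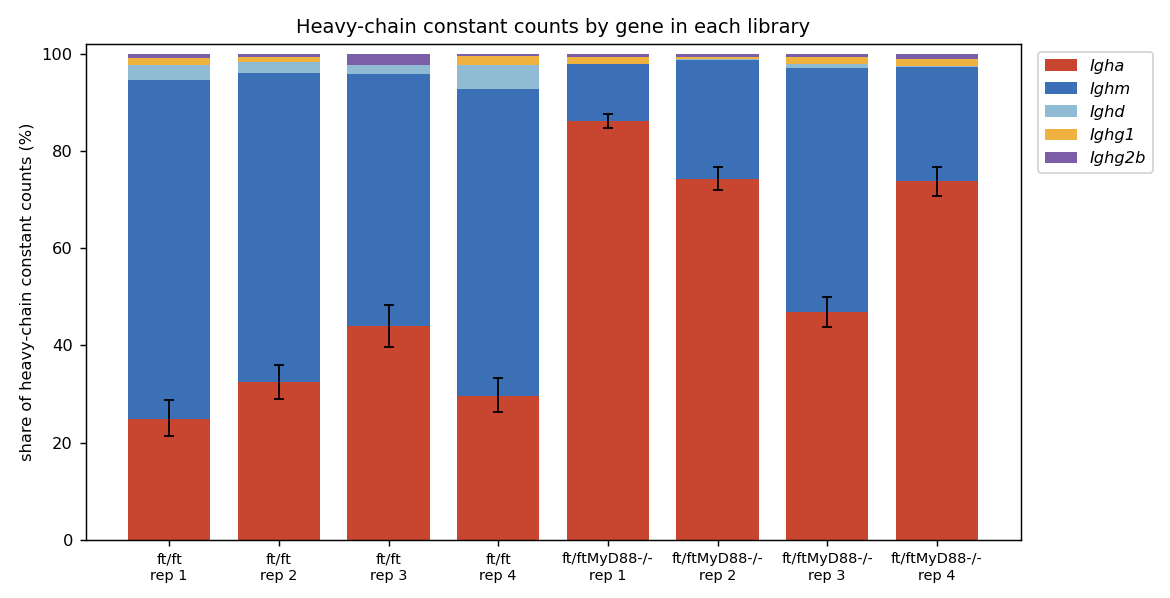
Share of heavy chain constant counts taken by each gene in each library, as stacked bars in percent, with exact 95% intervals on the Igha share. The Igha part grows from 24.9% to 44.0% in ft/ft to 46.8% to 86.1% in ft/ftMyD88-/-, and the Ighm part shrinks as a share, while its level was not called different.

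Light chain makeup was dominated by kappa throughout. Lambda constant counts were 0%, 2.38%, 3.75% and 0% of light constant counts in ft/ft, where only 20 to 80 light constant counts were present, and 5.55%, 5.23%, 12.2% and 5.75% in ft/ftMyD88-/-. Every ft/ftMyD88-/- library was above every ft/ft library, although the exact 95% intervals of single ft/ft libraries, for counting error only, reached up to 10.6% to 16.8%. Within ft/ftMyD88-/-, replicate 3 had the highest lambda share (interval 7.42% to 18.7%) and the fewest Igkc counts. Heavy and light constant genes also differed in balance. The count of Igha per Igkc count was 3.12 to 8.33 in ft/ft and 2.79 to 3.62 in ft/ftMyD88-/-. Per kilobase of exon Igkc gave 3.55 CPM per kb in ft/ft, below Ighm, and 27.1 CPM per kb in ft/ftMyD88-/-, above every other constant gene.

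The starts of the constant exons that rose are shown because they are the part a rearranged V region is spliced to, and because none of their 50-base stretches occurs in another gene. They are the first 60 coding bases in GENCODE M21 on GRCm38, 5′ to 3′, with Igha and Iglc1 on the minus strand and Igkc on the plus strand.
Igha, chr12:113260177-113260236: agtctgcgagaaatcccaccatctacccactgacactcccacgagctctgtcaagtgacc
Igkc, chr6:70726435-70726494: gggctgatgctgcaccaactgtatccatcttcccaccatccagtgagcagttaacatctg
Iglc1, chr16:19062012-19062071: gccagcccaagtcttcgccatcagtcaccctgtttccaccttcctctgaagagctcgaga
Over the whole coding sequence, 0% of 50-base stretches of Igha, Ighm, Ighd, Igkc and Iglc1 were found in another gene, against 0.886% for Ighg1, 9.10% for Ighg2b and 14.3% for Iglc2, which shares them with Iglc3.

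Jchain, the joining chain of IgA and IgM polymers, is no antibody chain gene but tracked the light chain closely. Counts of 10, 40, 69 and 21 stood in ft/ft, against 682, 281, 126 and 275 in ft/ftMyD88-/-. The means were 1.63 ± 1.54 CPM and 15.3 ± 11.0 CPM (SD, n = 4), with a log2 fold change of 3.28 (SE 0.859, edgeR adjusted p = 0.0376). In ft/ftMyD88-/- there were 0.977 to 1.12 Jchain counts for each Igkc count, and in ft/ft 0.500 to 0.976. Both genes put the 8 libraries in the same order of CPM, as did Igha. The call rested on few libraries, with an edgeR adjusted p of 0.0785, 0.0909 and 0.101 without ft/ft replicates 1, 2 and 4, and 0.0670, 0.0579 and 0.0810 without ft/ftMyD88-/- replicates 1, 2 and 4.

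**Figure D3:**
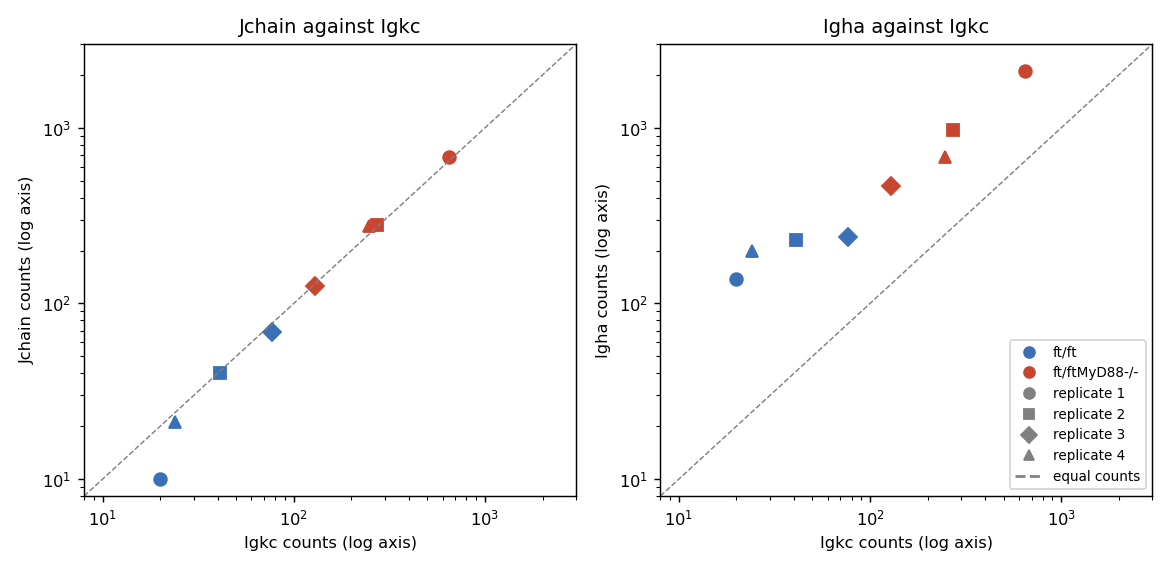
Counts of Jchain (left) and Igha (right) against counts of Igkc in the 8 libraries, both axes on a log scale, with a dashed line at equal counts. Jchain lies near the line from 10 to 682 counts, and Igha lies above it throughout, farthest in the ft/ft libraries with few Igkc counts.

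By the rule for likeness (Spearman's rho over the 8 libraries), 16155 genes were set against Igha and Igkc. Igha, Igkc and Jchain shared the order of the libraries exactly, as did B3gnt5, Bhlhe22, Dph6, Evl, Prmt5, RP23-155G13.1, S1pr3, Shb and Stk39 (rho 1.0). Pearson's r with Igkc was 0.994 for Jchain and 0.982 for Igha. The difference between the groups enters these values, so they are a description over 8 points.

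Variable genes showed a broad but uneven gain. Summed, they came to 9, 38, 52 and 13 counts (ft/ft replicates 1 to 4) and to 755, 331, 117 and 258 in ft/ftMyD88-/-. Of the 36 variable genes kept, 1, 5, 15 and 7 had a count in the ft/ft libraries and 35, 30, 19 and 28 in the ft/ftMyD88-/- libraries. Of 35 tested, 7 were called higher, against 10.9% of all genes tested, and 14 had no count in ft/ft. Only 4 of the 35 reached 10 counts in ft/ft alone, against 33 in ft/ftMyD88-/- alone. Most thus passed the count filter through ft/ftMyD88-/-, so the number called is a description and not a test. Most of the 35 were carried by a single ft/ftMyD88-/- library. For 28 of them, over 50% of the group's counts came from 1 library. This was replicate 1 for 18, replicate 2 for 6 and replicate 4 for 4.

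**Figure D4:**
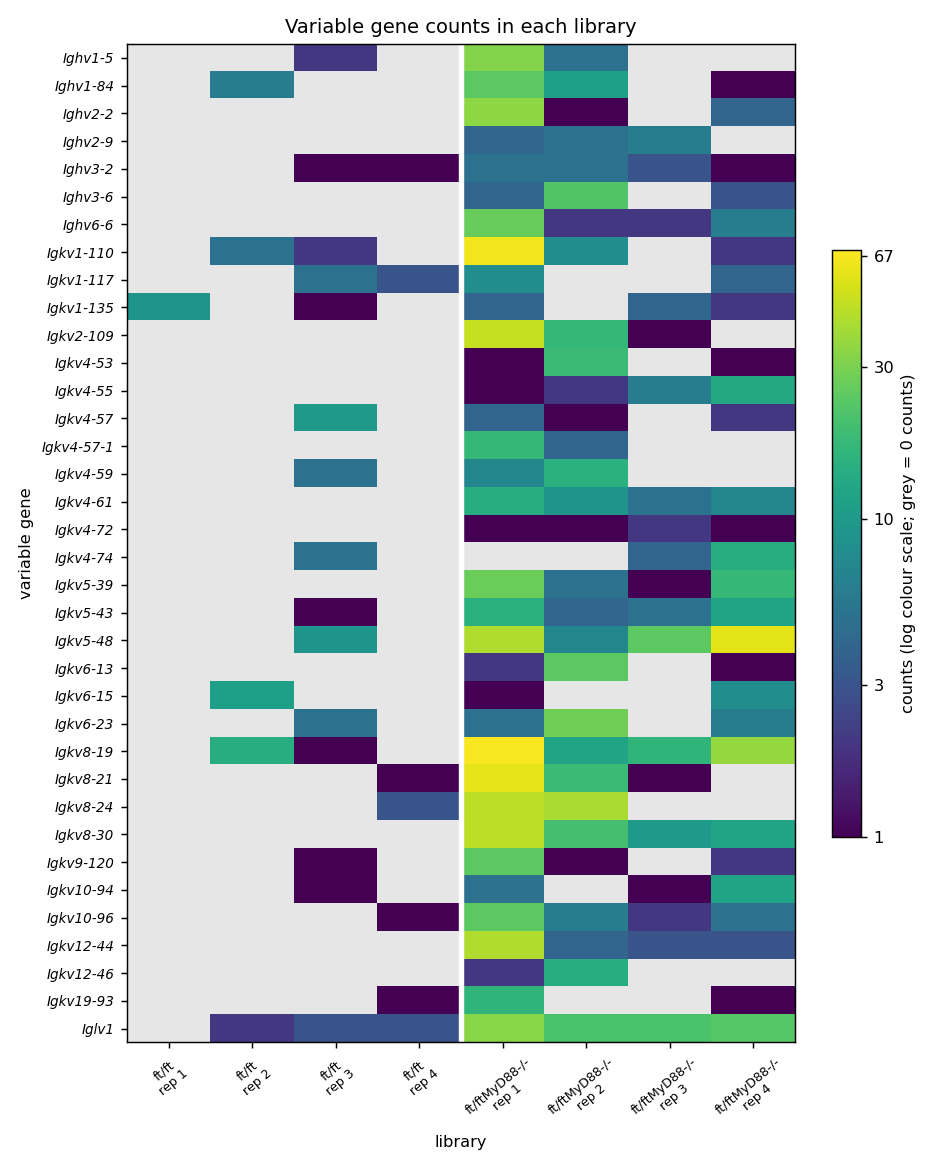
Counts of the 36 variable genes kept (rows) in each library (columns), on a log colour scale with 0 counts in grey. The ft/ft columns are almost empty, with 1 to 15 genes detected, and the ft/ftMyD88-/- columns hold 19 to 35 genes whose bright cells differ from library to library.

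The genes that led the libraries differed. In ft/ftMyD88-/- replicate 1 the top gene was Igkv8-19 (67 counts, 8.87% of variable counts), in replicate 2 Igkv8-24 (41 counts, 12.4%), and in replicates 3 and 4 Igkv5-48 (24 counts, 20.5%, and 59 counts, 22.9%). In ft/ft the top genes were Igkv1-135 (9 counts), Igkv8-19 (14 counts), Igkv4-57 (10 counts) and Igkv1-117 (3 counts). No ft/ftMyD88-/- library was therefore made up mainly of 1 variable gene among those listed. By family, Igkv8 gave 26.4% of variable counts in ft/ftMyD88-/- (4 genes), Igkv5 14.9% (3 genes) and Igkv4 10.3% (8 genes). Igkv8 was at 9.60, 3.34, 0.919 and 2.93 CPM in the 4 libraries and Igkv5 at 3.68, 0.588, 1.02 and 5.37 CPM, so that Igkv8 led in replicates 1 and 2 and Igkv5 in replicates 3 and 4.

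The ends of 9 variable genes are shown because they carry the findings above or below and because this is the stretch that recombination joins to a J or D segment. Each is the last 60 coding bases of the germline gene (GENCODE M21, GRCm38, minus strand), and capitals mark a cysteine codon, TGT or TGC, that follows a tyrosine or phenylalanine codon near the end of the V gene.
Igkv8-19, chr6:70340876-70340935: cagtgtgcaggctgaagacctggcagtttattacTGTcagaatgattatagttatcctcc
Igkv8-30, chr6:70117061-70117120: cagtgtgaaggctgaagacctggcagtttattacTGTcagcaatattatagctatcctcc
Igkv8-24, chr6:70216858-70216917: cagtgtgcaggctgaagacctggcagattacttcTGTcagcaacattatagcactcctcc
Igkv5-48, chr6:69726573-69726632: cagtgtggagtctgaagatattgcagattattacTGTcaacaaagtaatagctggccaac
Igkv5-43, chr6:69823355-69823414: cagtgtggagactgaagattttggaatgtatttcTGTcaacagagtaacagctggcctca
Igkv4-61, chr6:69416893-69416952: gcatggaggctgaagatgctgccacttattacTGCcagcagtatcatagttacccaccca
Iglv1, chr16:19085017-19085076: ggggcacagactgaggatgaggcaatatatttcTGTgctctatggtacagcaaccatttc
Ighv6-6, chr12:114434788-114434847: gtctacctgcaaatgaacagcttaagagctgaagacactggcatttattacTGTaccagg
Ighv2-2, chr12:113588267-113588326: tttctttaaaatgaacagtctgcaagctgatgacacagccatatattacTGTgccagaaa
The 3 Igkv8 genes printed are 89.0% to 91.2% identical to each other over the whole coding sequence.

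Among kappa variable genes, the 2 with the smallest adjusted p had no count in ft/ft. Igkv8-30 had 46, 20, 10 and 12 counts in ft/ftMyD88-/- and was at least 7.35-fold higher than the limit for 0 counts (edgeR adjusted p = 0.00372). Igkv4-61 had 14, 9, 5 and 7 counts and was at least 2.96-fold higher (edgeR adjusted p = 0.00371). Both were present in all 4 ft/ftMyD88-/- libraries. Igkv5-43 had 1 count in ft/ft, in replicate 3, and 15, 4, 5 and 12 in ft/ftMyD88-/-, a ratio of 35.6 with a counting interval of 6.00 to 1450 (edgeR adjusted p = 0.00679). Igkv10-96 likewise had 1 count in ft/ft, in replicate 4, and 24, 6, 2 and 5 in ft/ftMyD88-/-, a ratio of 36.6 with an interval of 6.18 to 1480 (edgeR adjusted p = 0.0123). Ratio intervals cover counting error only. Igkv4-55, with no count in ft/ft and 1, 2, 6 and 13 in ft/ftMyD88-/-, was at least 2.14-fold higher (edgeR adjusted p = 0.044). Its adjusted p was 0.0692 to 0.0804 without any 1 of the ft/ft libraries and 0.0744 without ft/ftMyD88-/- replicate 3, and without replicate 4 it fell below the minimum count.

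Of the 5 kappa genes with the highest mean level, Igkv8-30 was called and the other 4 were not. Igkv5-48 went from 0, 0, 9 and 0 counts (ft/ft) to 42, 7, 24 and 59 (ft/ftMyD88-/-, log2 fold change 3.90, SE 1.27, edgeR adjusted p = 0.0629). Igkv8-19 had 0, 14, 1 and 0 counts and then 67, 12, 16 and 36 (log2 fold change 3.22, SE 1.08, edgeR adjusted p = 0.0651). In each, a single ft/ft library overlapped the ft/ftMyD88-/- range. Igkv5-48 was called without ft/ftMyD88-/- replicate 2 (log2 fold change 4.29, edgeR adjusted p = 0.0300). Igkv8-19 was called without ft/ft replicate 2 (log2 fold change 6.20, edgeR adjusted p = 0.0124) and, more narrowly, without ft/ftMyD88-/- replicate 2 or 3 (edgeR adjusted p = 0.0459 and 0.0490). Igkv8-24 had counts of 46 and 41 in ft/ftMyD88-/- replicates 1 and 2, 0 in replicates 3 and 4, and 3 in ft/ft replicate 4 (edgeR adjusted p = 0.102). Without ft/ftMyD88-/- replicate 3 it was called (log2 fold change 5.07, edgeR adjusted p = 0.0235). Igkv1-110 had 64 of its 74 ft/ftMyD88-/- counts in replicate 1 and 7 counts in ft/ft (log2 fold change 3.35, SE 1.64, edgeR adjusted p = 0.183).

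The heavy variable genes listed had few counts, and several rested mainly on 1 library. Together the 7 genes summed to 0, 6, 3 and 1 counts in the ft/ft libraries and to 129, 51, 11 and 15 in ft/ftMyD88-/-. Kappa variable sums were 593, 259, 85 and 220 in the same ft/ftMyD88-/- libraries, but over 28 genes. Only 12.5% of RefSeq's immunoglobulin names have a value here, so these sums do not compare the chains. Ighv2-2 had 34, 1, 0 and 4 counts in ft/ftMyD88-/- and none in ft/ft (edgeR adjusted p = 0.186). Ighv6-6, with 26, 2, 2 and 6 counts and none in ft/ft, was in every ft/ftMyD88-/- library (edgeR adjusted p = 0.0528, and 0.0382 or 0.0292 without ft/ftMyD88-/- replicate 2 or 3). Ighv3-2, a pseudogene in RefSeq, was also in all 4, with 5, 5, 3 and 1 counts against 0, 0, 1 and 1 in ft/ft (edgeR adjusted p = 0.0607). Ighv3-6, also without a count in ft/ft, had 22 of its 29 counts in replicate 2 (edgeR adjusted p = 0.0679, and 0.0115 without replicate 3). Ighv1-5 had 32 and 5 counts in ft/ftMyD88-/- replicates 1 and 2 and 2 counts in ft/ft (edgeR adjusted p = 0.14). Ighv1-84 had 24, 11, 0 and 1 counts against 6 in ft/ft replicate 2 (edgeR adjusted p = 0.204). Ighv2-9 was the 1 heavy variable gene called higher, on 4, 5, 6 and 0 counts (edgeR adjusted p = 0.0294), at least 1.08-fold higher. Its edgeR adjusted p was 0.0503 to 0.0601 without any 1 of the ft/ft libraries or without ft/ftMyD88-/- replicate 1 or 2, and without replicate 3 it fell below the minimum count.

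**Figure D5:**
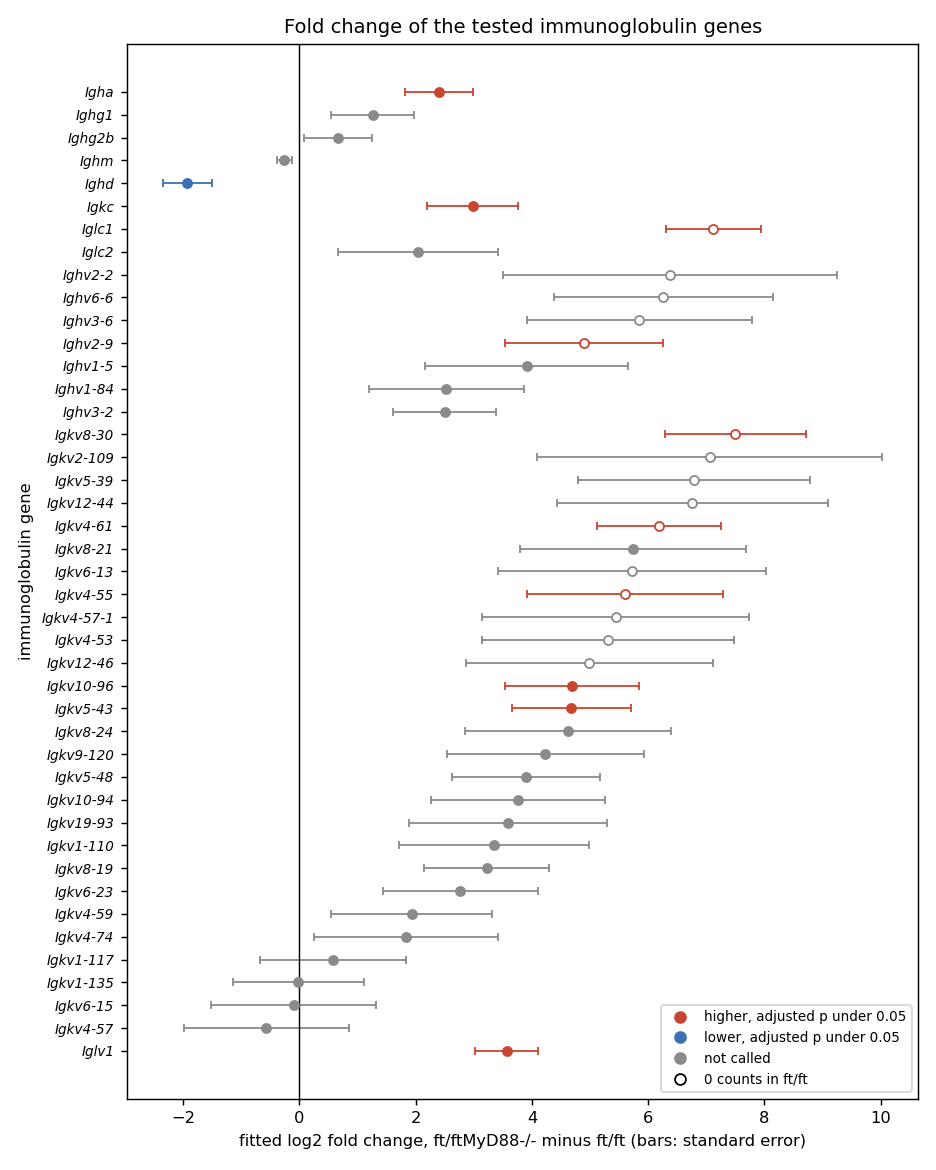
Fitted log2 fold change of the 43 tested genes (ft/ftMyD88-/- minus ft/ft) with standard errors, grouped by chain and region, in red where called higher, blue where called lower and grey where not called, with open markers for genes at 0 counts in ft/ft. Ighd alone lies on the lower side with a call, and 38 of the 43 lie above 0. The fitted values of open markers depend on the prior count and are no bounds.

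Counts of single variable genes are uncertain, since near copies compete for a read. Of 37 variable genes matched, 32 share at least 1 stretch of 50 coding bases with another gene, up to 72.9% of stretches for Igkv4-59. Shared stretches made up 56.8% in Igkv4-61, 56.7% in Igkv5-43, 58.3% in Ighv1-84, 55.8% in Ighv2-2, 44.2% in Igkv1-110, 25.2% in Iglv1, 25.0% in Igkv8-19 and 19.3% in Igkv8-30. Igkv5-48 and Igkv8-24 share none. The closest pair of members, Igkv1-110 and Igkv1-117 (97.2% identical), is shown by its last 60 coding bases on the plus strand of chromosome 6, with capitals where the copies differ.
Igkv1-110, chr6:68271208-68271267: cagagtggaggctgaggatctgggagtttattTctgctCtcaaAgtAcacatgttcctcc
Igkv1-117, chr6:68121768-68121827: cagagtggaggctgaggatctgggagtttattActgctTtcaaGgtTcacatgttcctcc
The pair did not show the same counts, with 64 for Igkv1-110 and 8 for Igkv1-117 in ft/ftMyD88-/- replicate 1. A germline V gene takes up only reads that still match it after rearrangement and mutation, and the BALB/c heavy chain locus differs from that of the reference strain. How many reads this cost was not tested.

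Other genes of the plasma cell lineage changed less. Of a list of 12, 2 were called higher, against 10.9% of all genes tested. They were Jchain and Pou2af1 (a coactivator of immunoglobulin transcription, log2 fold change 2.36, SE 0.602, edgeR adjusted p = 0.0146). The list median was 0.08 against 0.01 over all genes. Tnfrsf17, the receptor BCMA of plasma cells, was at 0.340 ± 0.0888 and 0.298 ± 0.132 CPM (SD, n = 4), and Mzb1, a chaperone of IgM assembly, at 0.326 ± 0.0692 and 0.534 ± 0.172 CPM. Sdc1, Xbp1, Prdm1 and Txndc5 were between 53.4 and 1040 CPM in ft/ft, and keratinocytes are known to express Sdc1 and Prdm1.

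Of 9 B cell genes tested, Blk was called higher (log2 fold change 1.51, SE 0.227, edgeR adjusted p = 8.20e-04) and Bank1 lower (log2 fold change -0.92, SE 0.233, edgeR adjusted p = 0.0145, or 0.0525 without ft/ft replicate 4). Over all genes tested, 10.9% were called higher and 12.3% lower. Blk is a kinase also found in gamma delta T cells, and Bank1 is a B cell scaffold protein. Defining markers were close to the limit of detection, with 2 to 9 counts of Cd79a, 0 to 7 of Ms4a1 and 0 to 5 of Pax5 in any library. The 5 lymphoid follicle genes tested had edgeR adjusted p-values of at least 0.0831, and Cr2, a marker of follicular dendritic cells, had at most 2 counts in any library.

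Markers of other cells also differed between the groups, in both directions. For scale, 10.9% of all genes tested were called higher and 12.3% lower. All 6 T cell genes of a list (Cd3d, Cd3e, Cd4, Cd8a, Cd5 and Lck, several of which gamma delta T cells also express) were called higher, with summed levels of 8.74 to 13.5 CPM in ft/ft and 20.6 to 24.5 CPM in ft/ftMyD88-/-, and the pan-leukocyte gene Ptprc rose from 22.2 ± 1.85 to 36.1 ± 4.55 CPM (SD, n = 4, edgeR adjusted p = 0.00112). Within ft/ftMyD88-/- Ptprc was lowest in replicate 1 and highest in replicate 3, the reverse of Igha. Of 4 lacrimal gland genes measured, Lpo was called higher and Aqp5 and Amy1 lower, with summed levels of 115 to 121 CPM in ft/ft and 79.7 to 135 CPM in ft/ftMyD88-/-. Car6, a secreted carbonic anhydrase of that list, was at 10.2, 9.02, 14.3 and 11.7 CPM in ft/ft and 81.2, 15.3, 21.4 and 51.5 CPM in ft/ftMyD88-/- (edgeR adjusted p = 0.0561), highest in the same library as Igha. It was called higher without ft/ftMyD88-/- replicate 2 or 3 (edgeR adjusted p = 0.0217 and 0.0453). Of 5 conjunctiva genes Krt13 and Krt8 were called lower (summed levels 1320 to 2550 and 986 to 1840 CPM). The part of these cells in the antibody values was not tested.

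Genes of antibody transport and binding rose in part. Of 10 on the list 5 were called higher, against 10.9% of all genes tested. All 5 were Fc receptors: Fcgr1, Fcgr2b, Fcgr3 and Fcgr4, which bind IgG, and Fcer1a, the IgE-binding chain of mast cells and basophils. Fcer1a went from 3, 3, 3 and 6 (ft/ft) to 11, 59, 33 and 29 counts (ft/ftMyD88-/-, log2 fold change 3.08, SE 0.500, edgeR adjusted p = 0.0013). Fcgr4 went from 5, 16, 2 and 8 to 14, 50, 30 and 36 counts (log2 fold change 2.11, SE 0.487, edgeR adjusted p = 0.00892). Pigr, the transporter of polymeric IgA, was at 22.3, 44.9, 15.8 and 11.5 CPM in ft/ft and 74.1, 45.2, 29.8 and 60.2 CPM in ft/ftMyD88-/- and was not called (log2 fold change 1.14, SE 0.499, edgeR adjusted p = 0.152). Without ft/ft replicate 2 it was called (log2 fold change 1.66, edgeR adjusted p = 0.0268). Fcgrt, the neonatal Fc receptor, was at 117 ± 17.8 and 106 ± 20.6 CPM (SD, n = 4).

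Of 14 genes of B cell help and homing tested, 3 were called higher, against 10.9% of all genes tested. Ccl28, the epithelial chemokine that draws IgA plasma cells through Ccr10, rose from 40, 49, 17 and 33 counts (ft/ft) to 107, 125, 151 and 73 (ft/ftMyD88-/-). It went from 1.43 ± 0.393 to 4.72 ± 0.296 CPM (SD, n = 4, log2 fold change 1.71, SE 0.206, edgeR adjusted p = 2.27e-04). Unlike Igha it was nearly level over the 4 ft/ftMyD88-/- libraries. Cxcl12, which holds plasma cells in bone marrow, and Cd40, the receptor for T cell help, were also called higher (log2 fold changes 0.61 and 0.95). Ccr10 itself was at 0.638 ± 0.150 and 0.574 ± 0.183 CPM. Tnfsf13b (BAFF) and Tnfsf13 (APRIL), survival factors of the lineage, had log2 fold changes of 0.80 and 0.65 (edgeR adjusted p = 0.0707 and 0.0727).

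Of 9 genes of class switching and recombination 5 were measured, and Ung, Apobec1 and Dntt were called higher, against 10.9% of all genes tested. Ung, the uracil glycosylase used in switching and in DNA repair of every cell, went from 9.34 ± 1.37 to 16.4 ± 1.61 CPM (SD, n = 4, edgeR adjusted p = 0.00124). Dntt, which adds bases at V(D)J joints, rested on 2 counts in ft/ft and 16 in ft/ftMyD88-/- (edgeR adjusted p = 0.0378), and without ft/ft replicate 2, 3 or 4 or ft/ftMyD88-/- replicate 1, 2 or 4 the adjusted p was 0.0555 to 0.0946. Vpreb1 and Vpreb3, parts of the surrogate light chain of B cell precursors or related to it, were at 0 to 8 counts in every library.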

How the data were processed

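RNA of periocular skin was sequenced from 4 ft/ft and 4 ft/ftMyD88-/- samples. The values are raw counts per gene that the authors deposited without normalization, from reads aligned to GRCm38.p6 (HISAT, TopHat2) and counted per gene (HTSeq, defaults). Versions, annotation release and strand setting are not given in the sources used here. The paper describes polyA-selected TruSeq libraries read for 50 bases, whereas these samples are labelled total RNA, with a fixed-tissue protocol and Cell Ranger.

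Here, genes with at least 10 counts over the 8 libraries (20454) were fitted in R 4.3.3 with edgeR 4.0.16 (glmQLFit, robust, glmQLFTest, two-sided, TMM, no covariate). P-values were adjusted by Benjamini-Hochberg, with calls under 0.05. SEs came from the log2 fold change and the F value. The fit was tested on simulated data. Alternatives were DESeq2 1.42.0, voom (limma 3.58.1), RLE, library size only, filterByExpr, no filter, stricter thresholds, the replicate number as a block and each library left out. Chi-square over degrees of freedom was 15.1 or more for each pair within a group, so none was a duplicate. Shares carry exact (Clopper-Pearson) 95% intervals. A fold against 0 counts used a floor of 3 counts per library. Exon lengths and sequences came from GENCODE M21, gene coordinates from RefSeq (GRCm38.p6, all 45 genes matched).

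Genes named were all constant genes, the 5 heavy and 5 kappa variable genes with the highest mean, the lambda variable gene, the 5 called variable genes with the smallest adjusted p in each direction and the top gene of each group, with marker lists given by counts. Ighv2-9, Ighv3-2, Igkv4-55, the top variable genes of single libraries, Igkv1-117 and Igkv4-59 were named after their values were seen. Members and lists were chosen with earlier results of these data known.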

Additional observations from a re-analysis of the deposited data

Results flagged for a closer look

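Of 46 groups of 4 values examined, over named genes and shares, 13 held a library whose gap to the others exceeded Dixon's 95% critical value. About 1 in 20 groups of normally distributed values pass it, a rate that does not hold for counts near 0. Where the other 3 libraries are at 0, any single count gives a flag. The 13 therefore cannot be set against a chance rate. In ft/ft, most rest on a handful of counts in a single library: Ighv1-5 (0.112 CPM), Igkv5-48 (0.502 CPM), Igkv5-43 (0.0558 CPM) and Ighg2b (0.725 CPM, others 0.115 to 0.214) in replicate 3, Ighv1-84 (0.218 CPM) and Igkv8-19 (0.509 CPM, others up to 0.0558) in replicate 2, and Igkv8-24 (0.115 CPM) and Igkv10-96 (0.0383 CPM) in replicate 4. Apart from Ighg2b and Igkv8-19, the other 3 ft/ft libraries had 0 counts of these genes. In ft/ftMyD88-/-, replicate 1 stood apart for Ighv2-2 (1.49 CPM, others up to 0.244), Ighv1-5 (1.40 CPM, others up to 0.184), Igkv1-110 (2.80 CPM, others up to 0.294) and Iglc2 (0.701 CPM, others up to 0.0610). The lambda share of light constant counts stood apart in ft/ftMyD88-/- replicate 3, at 12.2% against 5.23% to 5.75% in the others.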

How the results depend on the processing

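No direction of a named gene reversed in any alternative. Over all genes, 2239 were called higher and 2525 lower, 951 and 1350 at an adjusted p under 0.01, 752 and 520 with a log2 fold change of at least 1 in size, 4638 and 1326 with library size only, and 1462 to 2260 and 1851 to 2408 with a library left out. Of the antibody genes 10 were called higher, 5 at an adjusted p under 0.01, 16 with library size only, 6 with filterByExpr (which tested 9), 17 with DESeq2, and 6 to 17 with a library left out (6 without ft/ft replicate 1 or 4, 17 without ft/ftMyD88-/- replicate 3). 1 was called lower, or 2 without ft/ftMyD88-/- replicate 3. Iglc1 and Iglv1 were called higher, at an adjusted p under 0.05, in all 15 other fits. Igkv10-96, Igkv4-61, Igkv5-43 and Igkv8-30 were called higher in the 14 that tested them, since filterByExpr left them out. Same-numbered samples did not deviate together over all genes (correlations -0.146, 0.0251, 0.0146 and -0.0169). The labels give no pairing beyond the number, and these correlations cannot exclude one. With the replicate block 17 antibody genes were called higher, 7 of them among the 10, and Igha (log2 fold change 2.19, adjusted p = 0.166) and Igkc (2.91, adjusted p = 0.188) were not. The cause was not tested. Of the variable genes tested, 14 had no count in ft/ft. Their fitted folds depend on the prior count, and only the folds given as at least are lower bounds.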

Other observations

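Ighm was present in every ft/ft library at 283 to 453 counts, while partners of membrane IgM were scarce. The same libraries held 2 to 4 counts of Cd79a and 5 to 17 of Cd79b, the signalling chains of the B cell receptor, and 20 to 80 light constant counts. They also held 0 to 6 heavy variable counts, summed over only 7 genes. With 12.5% of RefSeq's immunoglobulin names listed, that sum does not show how scarce heavy variable regions were beside Ighm. In ft/ftMyD88-/- Ighm was at 218 to 500 counts, with 147 to 685 light constant and 11 to 129 heavy variable counts. Kappa variable counts per Igkc count were 0.375 to 0.732 in ft/ft and 0.659 to 0.952 in ft/ftMyD88-/-. At an unadjusted p under 0.05 in edgeR's test, 24 antibody genes were higher and 1 lower. The share of all genes at that threshold was not taken. Most members passed the count filter through ft/ftMyD88-/-, so these numbers are a description and not a test.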
